A study of Mus musculus with 6 samples.

Results

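The neurotrophin receptors measured here were Ntrk2 (TrkB, gene ID 18212, chromosome 13), Ntrk3 (TrkC, gene ID 18213, chromosome 7) and Ngfr (the low-affinity neurotrophin receptor, gene ID 18053, chromosome 11). They are 3 of the 18193 mouse genes with a probe set of their own symbol, and 19 of 45037 probe sets, chosen by gene symbol and not by any measured value. The samples were 6 pools of dorsal root ganglion neurons, 1 Affymetrix expression array per pool. L3-B was 50 control neurons per pool. L3-S and L6-R were 20 neurons per pool, each carrying DiI, a fat-soluble tracer dye that labels a cell body through its axon. Each of these 3 title codes had 1 pool of big diameter neurons and 1 of medium to small diameter neurons. The sources used here do not give what the codes mean, where the dye was placed, the strain, age or sex of the mice, or how many animals were used. DiI labelling and the number of neurons pooled (20 against 50) went together, so a difference from L3-B cannot be told apart from either.

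Neurotrophins are secreted proteins on which sensory neurons depend for survival during development and which adjust their function later in life. TrkB is the receptor tyrosine kinase for brain-derived neurotrophic factor and neurotrophin-4, and TrkC is the one for neurotrophin-3. Ngfr, a member of the tumour necrosis factor receptor family without a kinase, binds all neurotrophins and modifies Trk signalling. In dorsal root ganglia TrkC marks muscle spindle afferents and some large touch neurons, and TrkB marks certain low-threshold touch neurons, among them the D-hair afferents. Truncated forms of TrkB and TrkC that lack the kinase also exist, and truncated TrkB and Ngfr are made by glia as well as by neurons.

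The deposited values were linear signal intensities already scaled to a common trimmed mean on every array. Between 55.3% and 59.6% of an array's probe sets lay under a signal of 32, a range taken here as background, in which differences are not resolved. Differences below are those of log2(signal + 32), ± the standard error (SE) from limma, with title code and size class as terms and all 6 arrays in the fit. This added 32 shrinks differences of dim probe sets. A gene was called where its p-value, adjusted by the Benjamini-Hochberg method over the 9097 genes tested, was under 0.05. No code had a second pool of the same size class, so p-values measure the spread left after the additive fit, part of which can be technical, and 6 arrays limit the precision. The ratio of 3' to 5' signal of the Actb control, which grows as RNA is less complete, ran from 3.73 to 13.9 between arrays.

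Ntrk3 was highest in the L3-B control neurons, intermediate in L3-S and lowest in L6-R, and Ntrk2 was lower in L3-B than in either DiI code. Ngfr lay between 2323 and 2949 in all 6 pools. Of the 3 receptors, 1 rose and 1 fell past the threshold between L6-R and L3-B, where 7.51% of all genes tested were called (4.66% higher and 2.85% lower), and 0 of 3 were called in the other comparisons. By mean level the leading probe sets stood at percentile 86 (Ntrk2), percentile 91 (Ntrk3) and percentile 96.9 (Ngfr) of all genes, so none of these values was near background.

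**Figure D1:**
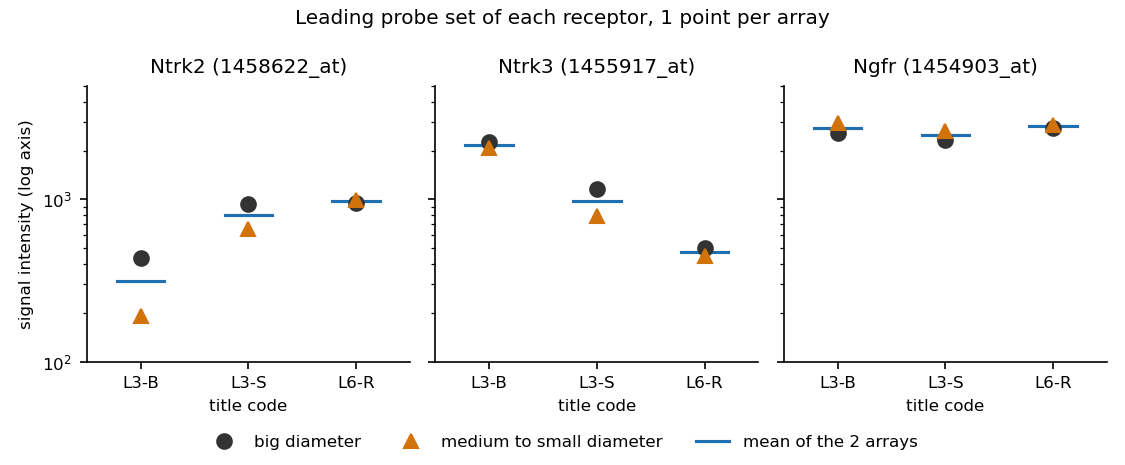
Signal intensity (log axis) of the leading probe set of Ntrk2, Ntrk3 and Ngfr by title code, 1 point per array, with circles for big and triangles for medium to small diameter pools and a bar at the mean of the 2 arrays of a code. Ntrk2 runs from 191 to 993 and is lowest in L3-B, Ntrk3 runs from 2243 down to 448 in the order L3-B, L3-S, L6-R, and Ngfr stays between 2323 and 2949.

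The leading probe set of Ntrk3, 1455917_at, had signals of 2243 (big) and 2087 (medium to small) in the L3-B pools. The L3-S pools followed at 1155 and 791, and the L6-R pools at 505 and 448. The 3 codes did not overlap in this probe set, and within each code the big pool was the higher. On the log2 scale the means were 11.10 ± 0.07 in L3-B, 9.95 ± 0.37 in L3-S and 8.99 ± 0.12 in L6-R (SD, n = 2 arrays per code). Groups without overlap are common in this design: 49.8% of the genes tested had no overlap between L6-R and L3-B, 38.5% had none between L3-S and L3-B, and 52.6% had none between L6-R and L3-S.

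Ntrk3 fell by 2.11 ± 0.23 log2 in L6-R against L3-B (n = 2 arrays per code, limma adjusted p = 0.00134), a level 4.33-fold lower. The fall was as large in the big pair of pools (-2.08) as in the medium to small pair (-2.14), and it stayed past the threshold with each array left out in turn. By unadjusted p it ranked 74 of 9097 genes in that comparison. The neighbouring steps did not pass. L3-S differed from L3-B by -1.15 ± 0.23 (95% confidence interval -1.68 to -0.63, limma adjusted p = 0.0664), where 1.02% of all genes were called. L6-R differed from L3-S by -0.96 ± 0.23 (-1.49 to -0.44, limma adjusted p = 0.0717), where 3.18% of genes were called. The former step was -1.35 without the L3-S big array. The latter kept its size of -0.96 without either L3-B array. Leaving out either of them gives the same fit as only the 4 arrays of L6-R and L3-S, which passed (limma adjusted p = 0.0277). The L3-B arrays bear on that step only through the estimate of spread.

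Ntrk3 had 8 probe sets, of which 3 had signals of 32 or more on every array, 3 on some and 2 on none (at most 26.3). The 2 other probe sets above 32 on every array ran in the same order of codes as the leading one. Probe set 1433825_at read 325 and 323 in the L3-B pools (big, then medium to small, an order kept below), 169 and 115 in the L3-S pools, and 38 and 60 in the L6-R pools. Its difference between L6-R and L3-B was -2.15 ± 0.25 (limma adjusted p over all probe sets 0.0403, against 0.0249 for the leading one), in a fit where 0.617% of all probe sets were called.

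Among the Ntrk3 probe sets above 32 on every array, 1447723_at differed most by size class in the DiI pools. It read 1665 and 1699 in the L3-B pools, 1381 and 575 in the L3-S pools, and 555 and 189 in the L6-R pools. The big pools of L3-S and L6-R were thus higher than the medium to small ones by 1.22 and 1.41 log2, while the L3-B pools differed by -0.03. The leading probe set differed by 0.53, 0.16 and 0.10 in L3-S, L6-R and L3-B. The difference of 1447723_at between L6-R and L3-B, -2.25 ± 0.37, did not pass over all probe sets (limma adjusted p = 0.0877), nor did its size difference of 0.87 ± 0.30 (limma adjusted p = 0.982).

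The 3 Ntrk3 probe sets that reached 32 only on some arrays did not run in that order throughout. Probe set 1422329_a_at read 51 and 195 in the L3-B pools, 80 and 27 in the L3-S pools, and 38 and 30 in the L6-R pools, so that the big L3-S pool stood above the big L3-B pool. Probe set 1425071_s_at had 40 and 64, 47 and 26, and 9 and 27, and 1443970_at had 24 and 13, 33 and 4, and 4 and 25. Their differences between L6-R and L3-B were -1.06, -0.75 and -0.15, smaller than that of the leading probe set and not called, and much of their signal was at background. Of the 6 probe sets that reached 32, 5 had no overlap between L6-R and L3-B, all lower in L6-R. But 3 of 6 overlapped between L3-S and L3-B and 3 of 6 between L6-R and L3-S. Of the genes tested, by leading probe set, 49.8%, 38.5% and 52.6% had no overlap in these comparisons, in that order. The share over all probe sets was not taken. The sources used here do not give which Ntrk3 transcript each probe set reads, so the gaps between probe sets cannot be assigned to the full-length or truncated receptor.

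The leading probe set of Ntrk2, 1458622_at, had signals of 433 (big) and 191 (medium to small) in the L3-B pools. The L3-S pools stood at 936 and 655, and the L6-R pools at 950 and 993. Both DiI codes lay above both L3-B pools, and the ranges of L3-S and L6-R adjoined without overlap. The means were 8.33 ± 0.75 in L3-B, 9.67 ± 0.35 in L3-S and 9.97 ± 0.04 log2 in L6-R (SD, n = 2 arrays per code), so the control code had the widest spread.

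Ntrk2 rose by 1.64 ± 0.29 log2 in L6-R against L3-B (n = 2 arrays per code, limma adjusted p = 0.0118), a level 3.11-fold higher. It was 2.20 in the medium to small pair and 1.08 in the big pair. Leaving out the medium to small array of L6-R gave 1.22 and ended the call (limma adjusted p = 0.12). The mean of all 8 probe sets, 3 of which never reached 32, gave 0.79 and was not called (limma adjusted p = 0.0763), and with every probe set tested the leading one was not called either (limma adjusted p = 0.108). L3-S differed from L3-B by 1.34 ± 0.29 (95% confidence interval 0.68 to 2.00, limma adjusted p = 0.0833), which did not pass. That difference was 1.76 without the L3-B big array and kept its size of 1.34 without either L6-R array. Leaving out either L6-R array gives the same fit as only the 4 arrays of L3-S and L3-B, which passed (limma adjusted p = 0.0249). L6-R and L3-S differed by 0.30 ± 0.29 (-0.36 to 0.96, limma adjusted p = 0.678), which did not pass. Leaving out the medium to small array of L6-R turned the estimate to -0.12, and leaving out its big array gave 0.72.

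Of the 8 Ntrk2 probe sets, 4 had signals of 32 or more on every array, 1 on 4 arrays and 3 on none (at most 25.8). All 5 that reached 32 were higher in both L3-S pools and both L6-R pools than in either L3-B pool. Of the genes tested, by leading probe set, 38.5% had no overlap between L3-S and L3-B and 49.8% had none between L6-R and L3-B. The share over all probe sets was not taken, and these 5 read the same gene. Probe set 1435305_at followed the leading one, at 210 and 63 in the L3-B pools, 456 and 335 in the L3-S pools, and 641 and 568 in the L6-R pools. Its difference between L6-R and L3-B was 2.07 ± 0.31 (limma adjusted p over all probe sets 0.0777).

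A further 3 Ntrk2 probe sets departed from that pattern among the DiI pools. Probe set 1420838_at read 96 and 100 in the L3-B pools, 341 and 301 in the L3-S pools, and 180 and 318 in the L6-R pools. The dim 1435196_at had 30 and 23, 90 and 86, and 48 and 120. In both, the L6-R big pool was lower than the L6-R medium to small pool, by 0.73 and 0.93 log2, where the leading probe set differed by -0.06 and 1435305_at by 0.17. Probe set 1437560_at lay at 116 and 75 in L3-B and between 201 and 227 in the 4 DiI pools. None of these differences between probe sets was tested, and the sources used here do not give the transcripts they read.

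**Figure D2:**
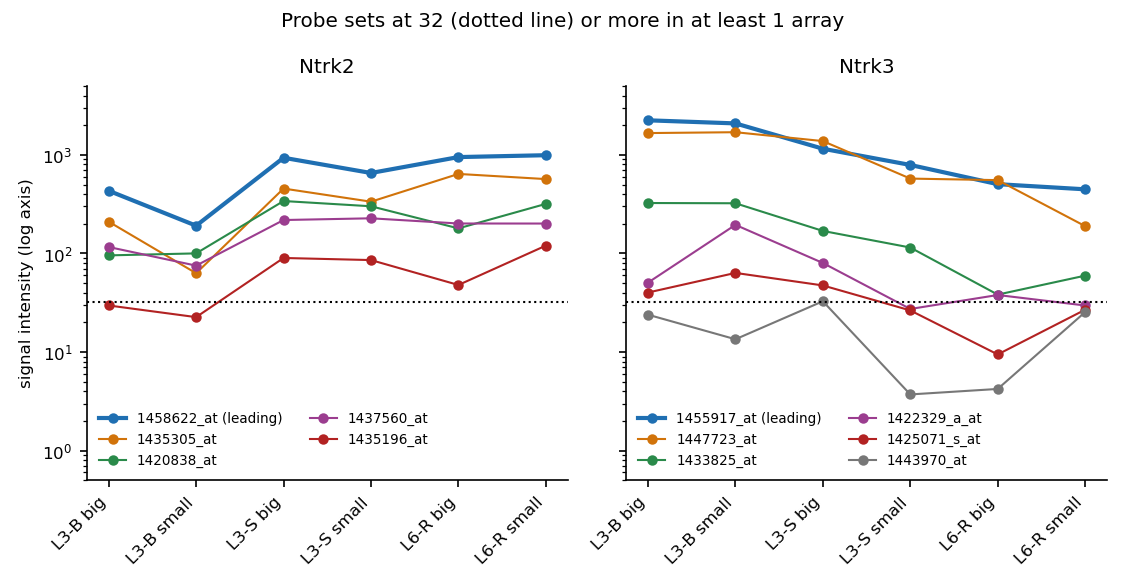
Signal intensity (log axis) on each of the 6 arrays for the 5 Ntrk2 and 6 Ntrk3 probe sets that reached 32 (dotted line) on at least 1 array; lines join the points of 1 probe set only to guide the eye, and the thick line is the leading one. The Ntrk2 lines step up from the L3-B arrays to the DiI arrays, and the bright Ntrk3 lines step down from L3-B to L6-R.

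Ngfr was bright in all 6 pools, and none of its differences passed. Its leading probe set, 1454903_at, had signals of 2556 (big) and 2949 (medium to small) in the L3-B pools. The L3-S pools stood at 2323 and 2651, and the L6-R pools at 2755 and 2885. The highest and the lowest pool were thus both from control or L3-S neurons, and the ranges of L3-B and L6-R overlapped. The differences were 0.04 ± 0.22 log2 for L6-R against L3-B (95% confidence interval -0.46 to 0.54, limma adjusted p = 0.95), -0.14 ± 0.22 for L3-S against L3-B (-0.64 to 0.35, limma adjusted p = 0.935) and 0.18 ± 0.22 for L6-R against L3-S (-0.32 to 0.68, limma adjusted p = 0.748). As folds, the interval for L6-R against L3-B ran from 0.727 to 1.45, so the estimated changes of Ntrk2 (3.11-fold) and Ntrk3 (4.33-fold) between these codes lie outside it. The other 2 Ngfr probe sets stayed under 32 on every array (at most 28.5) and give no second reading.

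Size class made no called difference in any receptor. Big minus medium to small was 0.50 ± 0.24 log2 for Ntrk2 (95% confidence interval -0.04 to 1.04), 0.26 ± 0.19 for Ntrk3 (-0.17 to 0.70) and -0.15 ± 0.18 for Ngfr (-0.56 to 0.25), with n = 3 arrays per size class and a limma adjusted p of 0.998 each. In this comparison 0 of 9097 genes were called (0% of those tested), although 320 had an unadjusted p under 0.05. Ngfr was a little lower in the big pool of every code, by 0.20 in L3-B, 0.19 in L3-S and 0.07 in L6-R. The Ntrk2 difference narrowed from 1.06 in L3-B to 0.49 in L3-S and -0.06 in L6-R, values of single pairs of arrays with no test.

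**Figure D3:**
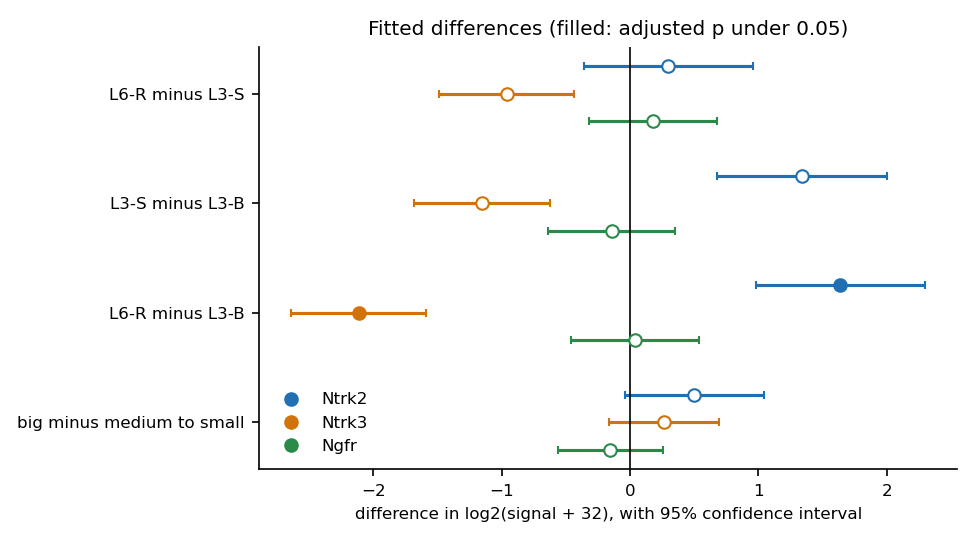
Fitted differences in log2(signal + 32) of Ntrk2, Ntrk3 and Ngfr (x axis) for the 4 comparisons (rows), with 95% confidence intervals of the limma fit to 6 arrays; filled points had an adjusted p under 0.05. Only Ntrk2 at 1.64 and Ntrk3 at -2.11 in L6-R against L3-B are filled, and every Ngfr interval crosses 0.

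Marker lists of neuron types also differed between the codes. All 10 general neuron markers measured were at 32 or more on every array, with a summed signal of 50501 to 69515. The 13 measured markers of large myelinated-fibre neurons summed to 32703 and 25662 in the L3-B pools, 25624 and 26570 in the L3-S pools, and 20075 and 17744 in the L6-R pools. Of 11 tested, 3 fell and 1 rose in L6-R against L3-B (median -0.59, against 0.02 over all genes), where 2.85% of all genes fell and 4.66% rose. In L3-S against L3-B 2 rose and 0 fell (median -0.16, against 0.03), where 0.923% of all genes rose. In L6-R against L3-S 3 fell and 0 rose (median -0.25, against -0.01), where 1.91% of all genes fell. Among these, Necab2 (31 and 45 in the L6-R pools) was bright enough to be tested only through the L3-S pools, so its fall was partly fixed by that selection. Pvalb, the calcium-binding protein of muscle spindle afferents, which also carry TrkC, had 723 and 756 in the L3-B pools, 2084 and 3413 in the L3-S pools, and 69 and 32 in the L6-R pools. Pvalb thus rose from L3-B to L3-S (1.81 ± 0.32, limma adjusted p = 0.0435), where the Ntrk3 difference was -1.15. In that comparison 5 of the 11 markers had differences above 0, Cadps2 highest at 3.07, and 6 had differences below 0, as Ntrk3 had: Maf (-0.65), Kcna1 (-0.55), Cntnap2 (-0.48), Calb1 (-0.45), Scn1a (-0.36) and Nefh (-0.16), none of them called. The Pvalb call was lost without either L3-B array or without the medium to small array of L3-S (limma adjusted p up to 0.127). From L3-S to L6-R Pvalb fell by 5.07 log2 (limma adjusted p = 0.000566), where the Ntrk3 difference was -0.96; 1 of the L6-R pools was at background, so the size of that fall depends on the added 32. The 10 measured markers of peptidergic nociceptors, which mostly lack TrkB and TrkC, summed to 5889 and 4216 in the L3-B pools, 6351 and 7130 in the L3-S pools, and 14301 and 11748 in the L6-R pools. Of 10 tested, 7 rose in L6-R against L3-B (median 2.36) and 3 in L3-S against L3-B (median 0.95), and 0 fell in either, where 4.66% and 0.923% of all genes rose. Between L6-R and L3-S 5 rose and 1 fell (median 1.32), where 1.26% of all genes rose and 1.91% fell. Kit was the gene that fell (-1.42, limma adjusted p = 0.0203). Gal, Trpv1, Trpa1, Adcyap1 and Gfra3 read at most 35 in the L3-B pools and were bright enough to be tested only through DiI pools. Their rises were thus partly fixed by that selection, and the size of these medians depends on the added 32. The same selection holds for Kit (34 and 68 in the L3-B pools) in L3-S against L3-B. A further list covered small neuron types outside the peptidergic group, with 6 genes tested. Osmr and Runx1 rose in L6-R against L3-B (list median 0.93), where 4.66% of all genes rose. Runx1 rose in L3-S against L3-B (list median 0.23), where 0.923% of all genes rose. Osmr rose in L6-R against L3-S (list median 0.20), where 1.26% of all genes rose. In each of these comparisons 0 of the 6 fell. Runx1 read 17 and 11 in the L3-B pools, at background, and was bright enough to be tested only through DiI pools. Osmr read 13 and 57 in the L3-B pools and 66 and 33 in the L3-S pools, and was tested only through L6-R. These rises were thus partly fixed by that selection. In pools, fewer neurons of a type and less of a transcript per neuron cannot be told apart.

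The summed signal of the markers listed as glial was higher in each of the 4 DiI pools than in either L3-B pool, though not every marker was. The 15 measured markers of satellite glia and Schwann cells summed to 13698 and 12294 in the L3-B pools, 14616 and 18274 in the L3-S pools, and 16827 and 22996 in the L6-R pools. S100b (6832 and 5546) and Pmp22 (2970 and 2876) made up most of the L3-B sums. Sox10 read 39 and 7 in the L3-B pools, so the sum alone does not show glial RNA in every pool. Of 11 tested, 5 rose and 0 fell in L6-R against L3-B (median 1.53, against 0.02 over all genes), where 4.66% of all genes rose. Among those that rose, Sox10 and Mal (66 and 38 in the L3-B pools) were bright enough to be tested only through DiI pools. Their rises were thus partly fixed by that selection. Erbb3 and Cdh19, not called, were also tested only through DiI pools, so the selection bears on the median too. In L3-S against L3-B 1 rose and 0 fell (median 0.50, against 0.03), where 0.923% of all genes rose, and 8 of the 11 differences were above 0. Apoe, a lipid carrier made by satellite glia, was called in both comparisons, with 540 and 913 in the L3-B pools, 2764 and 3745 in the L3-S pools, and 2394 and 5224 in the L6-R pools. The other markers that rose in L6-R against L3-B were Mbp (2.13), Sox10 (1.86), Mal (1.56) and Fabp7 (1.53); without the medium to small array of L6-R, the calls of Sox10, Mal and Fabp7 were lost, those of Mal and Fabp7 also without the medium to small array of L3-B (limma adjusted p up to 0.354). S100b, a calcium-binding protein on this list, ran the other way without a call. It had 6832 and 5546 in the L3-B pools, 5149 and 5753 in the L3-S pools, and 5114 and 4918 in the L6-R pools. Which cells its signal came from was not tested. In L3-S against L3-B Glul (-0.35) and Mal (-0.07) were also below 0. Between 2 and 6 of the 15 were under 32 on a given array, Mag and Gjc3 on all 6. Ngfr, which glia also make, stayed between 2323 and 2949 across the same pools, but the glial share of its signal was not measured. The part of glial RNA in the Ntrk2 difference was not tested.

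The summed signal of markers of connective tissue and vessels was also higher in each of the DiI pools than in either L3-B pool. The 9 measured ones summed to 417 and 299.6 in the L3-B pools, 1402 and 1556 in the L3-S pools, and 1015 and 1849 in the L6-R pools, with 2 to 6 of 9 under 32 on an array. All 3 that were tested rose in L6-R against L3-B (median 1.73), where 4.66% of all genes rose, namely Dcn (2.13), Rgs5 (1.73) and Col1a2 (1.13). The Dcn call held with each array left out, and the other two were lost without the medium to small array of L3-B or of L6-R, Col1a2 also without the big array of L6-R (limma adjusted p up to 0.358). In L3-S against L3-B Rgs5, a gene of the pericytes that wrap small vessels, rose by 3.32 ± 0.38 (limma adjusted p = 0.00938), from 89 and 40 in the L3-B pools to 824 and 977 in the L3-S pools, a call kept with each array left out. Between L6-R and L3-S none of those tested was called, and they went both ways: Rgs5 differed by -1.59, Dcn by 1.30 and Col1a2 by 0.20. The part of connective tissue and vessel RNA in the Ntrk2 difference was not tested. The measured blood and immune markers were dim, with 5 to 7 of 7 under 32 on each array.

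**Figure D4:**
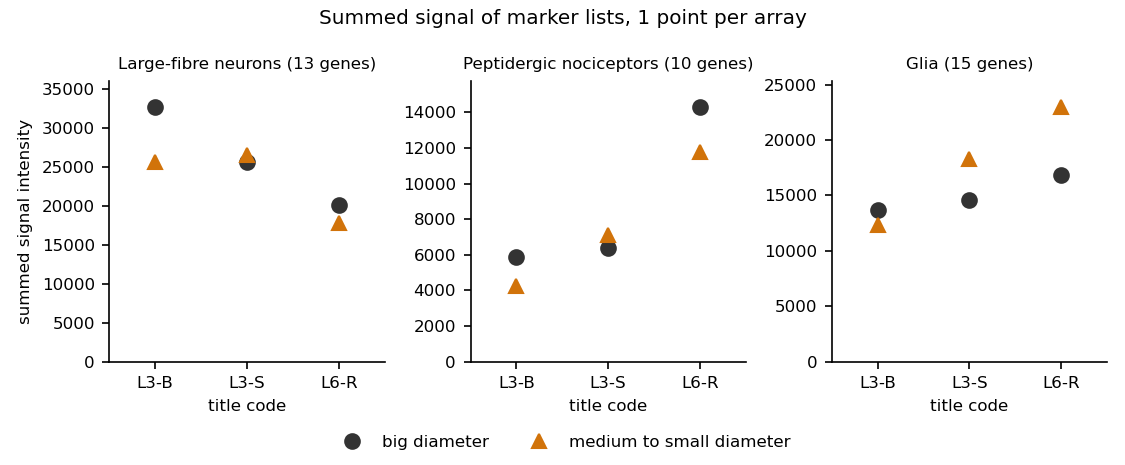
Summed signal intensity of the measured markers of large-fibre neurons, peptidergic nociceptors and glia by title code, 1 point per array, circles for big and triangles for medium to small diameter pools, each axis starting at 0. The large-fibre sum is lowest in L6-R (20075 and 17744), the peptidergic sum is highest there (14301 and 11748), and the glial sum is highest in the L6-R medium to small pool (22996).

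Some genes of the neurotrophin pathway other than the receptors were called in each comparison of title codes. A list of ligands, sortilin family co-receptors, partners of Ngfr, Trk adaptors and the kinases below them had 59 genes with a probe set, of which 49 were bright enough to be tested. Between L6-R and L3-B 4 rose and 0 fell, where 4.66% of all genes rose and 2.85% fell; the list's median was 0.13 and that of all genes 0.02. Between L3-S and L3-B 3 rose and 0 fell, where 0.923% of all genes rose and 0.0989% fell; the medians were 0.00 and 0.03. Between L6-R and L3-S 2 rose and 0 fell, where 1.26% of all genes rose and 1.91% fell. The medians were 0.06 and -0.01. Among the genes that rose, Sort1 (21 and 67 in the L3-B pools) and Bex1 (40 and 17) were bright enough to be tested only through DiI pools. Their rises against L3-B, and the counts that hold them, were thus partly fixed by that selection. In the size comparison 0 of 49 were called; the smallest unadjusted p-values of the limma fit were those of Sort1 (-0.56), Sorl1 (0.51) and Traf6 (0.35), all with an adjusted p of 0.998.

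The only ligand bright enough to be tested was Bdnf, the neurotrophin that binds TrkB and that some sensory neurons release themselves. It had signals of 93 and 323 in the L3-B pools, 207 and 135 in the L3-S pools, and 306 and 475 in the L6-R pools. Bdnf overlapped between L3-B and both other codes and was not called; it differed by 1.05 ± 0.41 between L6-R and L3-S (limma adjusted p = 0.252) and by 0.97 ± 0.41 between L6-R and L3-B (limma adjusted p = 0.214).

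Among co-receptors, Sort1, which encodes sortilin, the partner of Ngfr in binding pro-neurotrophins, was highest in L3-S. Its signals were 21 and 67 in the L3-B pools, 257 and 283 in the L3-S pools, and 84 and 148 in the L6-R pools. Sort1 was bright enough to be tested only through DiI pools, so a rise against L3-B was partly fixed by that selection. Sort1 rose by 2.06 ± 0.26 in L3-S against L3-B (limma adjusted p = 0.0123), a call kept with each array left out though 1 L3-B pool was at background, while L6-R differed from L3-S by -1.07 (limma adjusted p = 0.0721) and from L3-B by 1.00 (limma adjusted p = 0.0527). Its other 2 probe sets were dim (at most 46.7) and differed by 0.20 and 0.55 between L3-S and L3-B.

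Of the partners of Ngfr, Bex1 and Bex3 were the ones called. Bex1, an adaptor-like protein that binds the intracellular part of Ngfr, had 40 and 17 in the L3-B pools, 115 and 189 in the L3-S pools, and 892 and 881 in the L6-R pools. It rose by 3.96 ± 0.29 in L6-R against L3-B (limma adjusted p = 0.000256), by 2.35 ± 0.29 in L6-R against L3-S (limma adjusted p = 0.00625) and by 1.61 ± 0.29 in L3-S against L3-B (limma adjusted p = 0.0485). The L3-B pools were at or near background, so both differences against L3-B depend on the added 32 and can be read only as lower bounds. Bex1 was bright enough to be tested only through DiI pools, so both rises against L3-B were partly fixed by that selection. Both L6-R calls held with each array left out. The call of L3-S against L3-B was lost without the medium to small array of L3-B or of L3-S (limma adjusted p up to 0.182). Bex3, a related protein linked to Ngfr in cell death signalling, had 235 and 253 in the L3-B pools, 759 and 1157 in the L3-S pools, and 646 and 553 in the L6-R pools. Bex3 rose against L3-B in L3-S (1.81 ± 0.26, limma adjusted p = 0.0184) and in L6-R (1.19 ± 0.26, limma adjusted p = 0.0282). The L3-S call was lost on leaving out the medium to small array of L3-S (limma adjusted p = 0.0528), and the L6-R call on leaving out the medium to small array of L3-B or the big array of L6-R. The Ngfr differences between codes were 0.18 log2 or less in size.

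Downstream of the Trk receptors, Gab1 and Rps6ka5 were called. Gab1, a docking protein that links receptor kinases to phosphoinositide 3-kinase, had 270 and 187 in the L3-B pools, 304 and 303 in the L3-S pools, and 574 and 624 in the L6-R pools, and rose by 1.29 ± 0.24 in L6-R against L3-B (limma adjusted p = 0.0144). Rps6ka5, a nuclear kinase that acts on histones and CREB, had 278 and 185 in the L3-B pools, 197 and 244 in the L3-S pools, and 617 and 476 in the L6-R pools. It rose by 1.15 ± 0.26 against L3-B (limma adjusted p = 0.0334) and by 1.19 ± 0.26 against L3-S (limma adjusted p = 0.0487). Both genes were thus highest in the L6-R pools. A second bright probe set of each differed alike between L6-R and L3-B, by 1.12 for Gab1 and 1.47 for Rps6ka5. The Gab1 call was lost without the L3-B or the L6-R medium to small array. Each Rps6ka5 call was lost without either L6-R array, and without the L3-S big array (against L3-S) or the L3-B medium to small array (against L3-B).

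**Figure D5:**
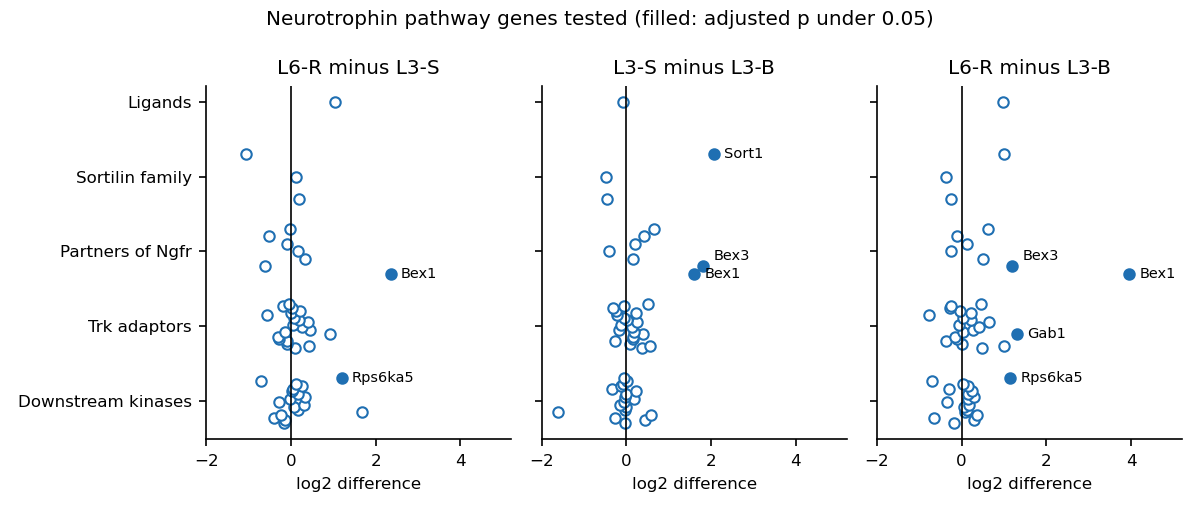
Log2 differences (x axis) of the 49 tested neurotrophin pathway genes by role (rows, points spread vertically for legibility) in the 3 comparisons of title codes; filled points had an adjusted p under 0.05 and are named. Most points lie close to 0, and all filled points lie to the right of it, Bex1 farthest at 3.96 in L6-R against L3-B.

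Genes with the profile most like a receptor were taken as the 5 with the highest Pearson correlation over the 6 arrays among the other genes whose range was at least 1 log2 (2445 for Ntrk2 and for Ntrk3, 2446 for Ngfr); arrays of a code are not independent of the design, so these are descriptions. For Ntrk3 they were Slco3a1 (r = 0.998), Mtx2 (0.991), Insyn2b (0.991), Lix1 (0.990) and Dkk3 (0.988). Slco3a1, an organic anion transporter, went from 459 and 468 in the L3-B pools to 336 and 267 in the L3-S pools and 223 and 207 in the L6-R pools. The steepest of the 5 was Insyn2b, with a range of 3.58 log2 and signals of 724 and 855, 273 and 131, and 42 and 56. For Ntrk2 they were Vamp8 (0.995), Copz2 (0.989), Kcnmb1 (0.979), Heca (0.966) and Cacna1h (0.964). Cacna1h, a T-type calcium channel, had 53 and 31 in the L3-B pools, 168 and 149 in the L3-S pools, and 189 and 225 in the L6-R pools; Kcnmb1, a subunit of calcium-activated potassium channels, had 35 and 8, 142 and 78, and 116 and 103. Several of these are dim in L3-B, where their values are not resolved. For Ngfr, whose own range was 0.34 log2, the 5 were Cenpb (0.990), Ing2, Smarce1, C2cd5 and B3gnt8 (0.926), and a likeness to so flat a profile says little.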

How the data were processed

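The deposited table holds the authors' linear signal intensity for each probe set on 6 Affymetrix arrays; its trimmed mean (2% of values at each end) was 150.001 on every array, so it was taken as scaled between arrays and left so. How the authors summarised probes is not given in the sources used here. Values were transformed as log2(signal + 32). Of 45037 probe sets beside 64 controls, 34945 carried 1 gene symbol in GEO's platform annotation, 932 several and 9160 none. Each gene was represented by its probe set with the highest mean, and the upper 50% of 18193 genes (9097) were tested. R 4.3.3 with limma 3.58.1 fitted title code and size class additively to all 6 arrays (lmFit, eBayes, two-sided, 2 residual and 6.46 prior degrees of freedom). Other probe sets came from the same fit to all 45037. Size class serves as the block that pairs the arrays of the codes, as the labels give it. The script was tested on simulated data. Chromosomes are from RefSeq (GRCm38.p6).

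The receptors, the pathway and marker lists and the tests were chosen with earlier results of these arrays known. Pathway genes were named where called or among the 3 smallest p-values of a comparison; Bdnf and the marker genes were named after their values were seen.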

Additional observations from a re-analysis of the deposited data

Results flagged for a closer look

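Ntrk2 differed between size classes in opposite directions in 2 codes. The big pool was higher than the medium to small pool by 1.06 log2 in L3-B and lower by a difference of -0.061 in L6-R. Ngfr did so between L6-R and L3-B, with a difference of 0.11 in the big pair and -0.032 in the medium to small pair. Each value is that of 1 pair of arrays, so neither difference between them was tested, and the values of -0.061, 0.11 and -0.032 are smaller than the SE of the fit for these genes.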

How the results depend on the processing

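Ntrk3 in L6-R against L3-B kept its direction and its call in all 18 alternatives (-2.23 to -1.10, limma adjusted p at most 0.0442). Ngfr was called in none, with adjusted p of at least 0.646. Leaving out either array of the code not compared gave the same fit as only the 4 arrays, so these are not separate alternatives. Ntrk2 in L6-R against L3-B (1.64) lost its call with all probe sets of the gene averaged (0.79), with every probe set tested (1.64) and on leaving out the medium to small array of L6-R; leaving out 1 array gave 1.22 to 2.06. Ntrk2 in L3-S against L3-B (1.34) passed with the Actb ratio as a covariate (1.30) and with only the 4 arrays of both codes (1.34), with 0.92 to 1.76 when 1 array was left out. Ntrk3 in L3-S against L3-B (-1.15) passed with a pseudocount 4 times as large (-1.08), an eBayes trend (-1.15) and the Actb ratio (-1.13), with -1.35 to -0.95 when 1 array was left out. Ntrk3 in L6-R against L3-S (-0.96) passed with a pseudocount 4 times as large (-0.85), an eBayes trend (-0.96), the Actb ratio (-0.96) and only the 4 arrays (-0.96), with -1.16 to -0.76 when 1 array was left out. No receptor was called between size classes in 16 alternatives.

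Counts of genes called, given for L6-R against L3-S, L3-S against L3-B and L6-R against L3-B (289, 93 and 683 as reported), depended on the setting. They were 137, 46 and 479 with a pseudocount of 1, 107, 14 and 457 with dim genes kept, 115, 21 and 299 in the upper 25% of genes, 24, 0 and 278 with every probe set tested, 994, 512 and 1590 with the Actb ratio, and 653, 171 and 995 with only the 4 arrays. Averaging probe sets gave 41 for L3-S against L3-B. With every probe set tested in L3-S against L3-B, limma called 0 of 45037, and 3225 had an unadjusted p under 0.05. Leaving out 1 array gave 140 to 653, 61 to 202 and 356 to 995. Between size classes the count was 0, with 2 under the Actb ratio and 0 to 1 when 1 array was left out.

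Counts of pathway genes called (2, 3 and 4 in the same order) were 0, 1 and 2 with a pseudocount of 1, 1, 0 and 2 with dim genes kept, 0, 0 and 1 with every probe set tested, and 7 and 11 (both L6-R comparisons) with the Actb ratio. They were 6 and 7 for those with only the 4 arrays. Against L3-S the count was 1 with quantile normalization, 0 in the upper 25% of genes and 1 with the mean of probe sets; for L3-S against L3-B it was 1 in each of the last 2. Leaving out 1 array gave 1 to 6, 2 to 3 and 2 to 7. With no replicate block (size class left out of the model) the counts of genes called were 346, 112 and 786, and no receptor's call changed. The cause of these shifts was not tested.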
